A study of Homo sapiens with 22 samples.

Results

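The change in gene expression between D0 and D6 of maturation was followed in HUDEP-2 cells that lack the histone variant H2A.X. These cells are human erythroid progenitors that were immortalized, held in expansion by doxycycline-driven viral oncogenes and matured by a change of medium. The rule took the 6 libraries of the H2A.X experiment that were labelled H2A.X KO, out of 22 RNA-Seq libraries in the series: 3 KO subclones at D0 and the same 3 at D6, called KO1, KO2 and KO3 below. H2A.X KO subclones came from CRISPR/Cas9 deletion with a pair of guides and limiting dilution, so each is 1 clone. The comparison groups are the 4 libraries of 2 H2A.X WT subclones from the same experiment, at D0 and D6, and the 6 WT libraries of a separate experiment on the chromatin protein BAZ1B, 3 at D0 and 3 at D6. D0 cells were in expansion medium, with stem cell factor, erythropoietin, dexamethasone and doxycycline, and D6 cells had spent 6 days in maturation medium, which holds plasma, heparin, transferrin and insulin, keeps stem cell factor, erythropoietin and doxycycline, and lacks dexamethasone.

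Terminal erythroid maturation turns a dividing progenitor into a red cell. The cell fills with hemoglobin, made of globin chains and heme, and builds a spectrin-based skeleton under its membrane, while the transcription factor GATA1 takes over from GATA2 and signalling through the receptor KIT ends. The nucleus condenses and is finally expelled, and H2A.X, whose phosphorylated form marks DNA breaks and apoptotic chromatin, is one of the histones of that nucleus.

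Reads were counted per gene, and total counts were between 18379174 and 18976911 in the KO libraries at D0 and between 17594193 and 21013004 at D6. In the WT libraries they were between 11910141 and 16171864. H2AFX, the gene of H2A.X (now H2AX, chr11:119093874-119095465, minus strand, GRCh38), had 333, 787 and 760 normalized counts in KO1, KO2 and KO3 at D0 and 308, 1050 and 799 at D6. Each of the 4 WT libraries lay higher, between 1575 and 2391, so the KO libraries held fewer H2AFX counts than any WT library but some in each. The guides cut before the start codon and shortly after the stop codon, so untranslated sequence of the gene can remain, and counts of the whole gene do not check the deletion. The fitted change of H2AFX from D0 to D6 in KO was 0.20 ± 0.42 on the log2 scale (SE, adjusted p = 0.756, edgeR). Markers of the erythroid lineage were abundant in all 6 KO libraries, where globin genes took 0.775% to 0.988% of counts at D0 and 2.43% to 4.34% at D6. Of 20 lymphocyte and monocyte markers, 9 were at 0 in all 6 KO libraries, and the list summed to 32.6 to 44.8 normalized counts at D0 and 12.5 to 14.3 at D6. Of 15 megakaryocyte and platelet markers 7 were at 0 throughout, and that list summed to 648 to 1404 at D0 and 185 to 818 at D6.

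One KO library stood apart. The count columns of the other 5 KO libraries carry the word Redo in their names, while that of KO3 at D6 and those of the WT libraries do not. Over 10165 genes, the log2 normalized counts of KO3 at D6 correlated at r = 0.944 and 0.949 with KO1 and KO2 at D6, which themselves reached r = 0.960. With WT1 at D6 it reached r = 0.930, against 0.870 and 0.866 for KO1 and KO2 at D6. For each gene, the log2 normalized count in a library was taken relative to its mean over all libraries of the H2A.X experiment. This deviation correlated by rank with transcript length at 0.168 in KO3 at D6, against 0.375 and 0.496 in KO2 and KO1 at D6. It reached 0.432 to 0.473 in the KO libraries at D0 and −0.628 to −0.369 in WT, values that are relative to the other libraries. The fold change of a gene between D6 and D0 correlated with its transcript length at rho = −0.0399 in KO and −0.242 in WT, and the difference of both at 0.175 (12017 genes). With offsets for transcript length and GC content in the fit, 4824 genes changed in KO and 488 passed the stricter cutoffs below, and other values are given with that library left out.

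Expression changed widely over the 6 days. At an adjusted p below 0.05 (edgeR's quasi-likelihood test, Benjamini-Hochberg over 13236 genes), 4094 genes changed in the KO subclones, which is 30.9% of those tested: 1957 rose (14.8%) and 2137 fell (16.1%). With stricter cutoffs, where the adjusted p lies below 0.001 and the log2 fold change beyond 1.5 in either direction, 426 genes were differentially expressed (DEGs, 3.22%), 145 higher (1.10%) and 281 lower (2.12%) at D6. Of all changed genes, 931 rose and 1333 fell at least 2-fold, 330 rose and 670 fell at least 4-fold, and 79 rose and 186 fell at least 16-fold. For 6463 genes (48.8%) the levels of the 3 D0 and the 3 D6 libraries did not overlap, 3134 higher (23.7%) and 3329 lower (25.2%) at D6. With the subclone as a replicate block the changed genes numbered 5095 and the DEGs 695. Without the library of KO3 at D6 they numbered 4871, 2444 higher and 2427 lower, and the DEGs 617, 290 higher and 327 lower. Leaving out KO1, KO2 or KO3 at D0, or KO2 at D6, lowered the genes that rose to between 1153 and 1266. The DEGs that rose numbered 88 and 92 without WT1 or WT2 at D6. All DEGs fell to between 119 and 248 without KO1, KO2 or KO3 at D0, KO2 at D6, or WT1 or WT2 at D0, and with the 6 KO libraries fitted alone they numbered 38, although 3876 genes still changed.

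Of the 4094 changed genes, 4077 had the same direction in all 3 subclones, which the test on these same subclones favours. Log2 changes over 10165 genes, each subclone's D6 library against its own D0 library, correlated at r = 0.899 between KO1 and KO2 and at 0.816 and 0.817 between KO3 and the other two. These are correlations across genes, which are not independent replicates. The DEGs that rose had a median log2 change of 2.58 in KO1, 2.73 in KO2 and 2.01 in KO3, and those that fell −3.03, −3.30 and −2.75. KO3 had the smallest change of the 3 subclones in 104 of the 145 DEGs that rose, and KO2 the largest in 77. KO2 had the highest level at D6 in 106 of the 145, and already at D0 in 85 of the 145.

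Globin genes and the enzymes of heme synthesis rose. Of 9 globin genes tested, 6 rose and none fell, with a median log2 fold change of 2.89, against 0.02 over all genes tested. HBB, the adult beta chain (chr11:5225464-5229395, minus strand), had 114937, 142113 and 126868 normalized counts in KO1, KO2 and KO3 at D0 and 377593, 698909 and 465951 at D6. The days did not overlap, and the mean rose 4.02-fold (log2 fold change 2.01 ± 0.30, SE, adjusted p = 0.00112). HBD, the minor adult delta chain, rose most among the globins, from 1704, 2659 and 1713 to 24796, 60514 and 12941 (4.02 ± 0.59, adjusted p = 0.001). The alpha chain genes HBA1 and HBA2, which are nearly identical so that their reads may be split between them, rose 8.67-fold and 7.43-fold. HBM, an alpha-like gene, went from 167, 681 and 513 to 1597, 8063 and 2745 (adjusted p = 0.00652). HBG2, a fetal gamma chain, rose on the fitted scale by 3.58 ± 1.19 (adjusted p = 0.0436), but it had 3981 normalized counts in KO2 at D6 and 302 and 135 in KO1 and KO3. Without KO2 at D6 its change was 0.84 (adjusted p = 0.466), and the call was also lost without KO1 or KO3 at D0, without any single WT library, or with the KO libraries alone. HBG1, HBZ and HBQ1 did not pass the test, with log2 fold changes of 2.84 ± 1.06, −0.76 ± 0.87 and 0.56 ± 0.35. With the subclone as a block HBG1 and HBQ1 passed (adjusted p = 0.0126 and 0.0411).

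All 8 enzymes of heme synthesis rose, with log2 fold changes between 1.11 and 2.51 and a median of 1.65, and all 8 still rose with any single library left out. ALAS2, the erythroid first enzyme of the pathway (chrX:55009055-55030977, minus strand), had 5710, 7382 and 6699 normalized counts at D0 and 37467, 51110 and 23840 at D6. That is 5.68-fold (2.51 ± 0.26, adjusted p = 0.000181), with KO2 the highest and KO3 the lowest at D6. ALAD, the second enzyme, rose 2.19-fold, from 3797, 3684 and 4221 to 7146, 9921 and 8609 (adjusted p = 0.000806). UROS, which closes the tetrapyrrole ring, rose 3.35-fold. UROD, CPOX and PPOX, the decarboxylase and oxidases that follow, rose 2.62-fold, 3.18-fold and 2.16-fold. FECH, which inserts iron, went from 4012, 5740 and 6327 to 10092, 21320 and 18647 (1.64 ± 0.26, adjusted p = 0.00161).

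**Figure D1:**
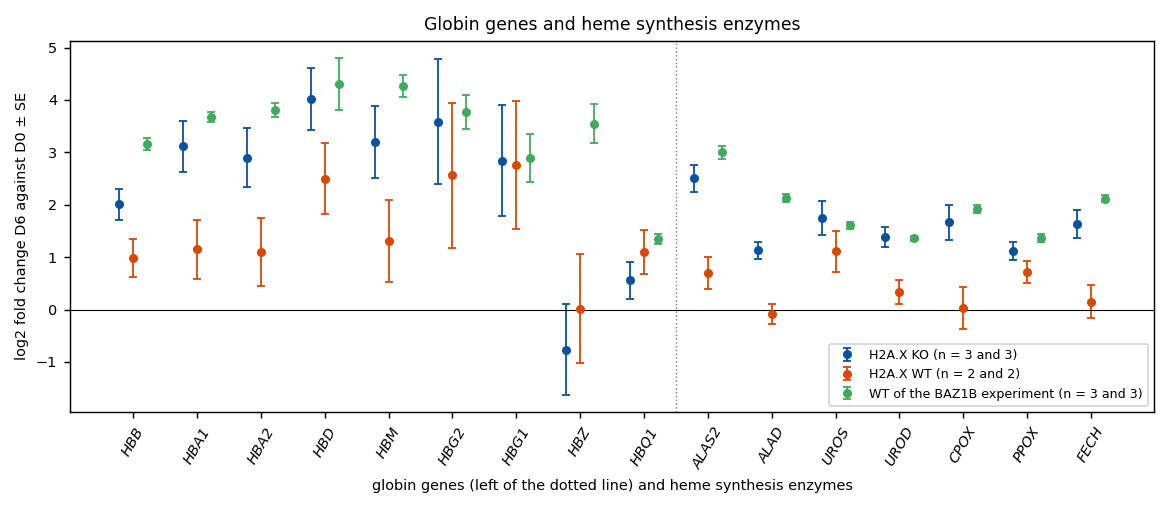
Log2 fold change from D0 to D6 ± SE for 9 globin genes and 7 enzymes of heme synthesis in H2A.X KO, H2A.X WT and the WT of the BAZ1B experiment. These 7 enzymes lay above 1 in H2A.X KO, and the H2A.X WT points lay lower for each of them.

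Iron supply moved with them. Of 18 genes of iron uptake, storage and export, 10 rose and 1 fell, with a median of 0.55, and without KO3 at D0 6 rose. TFRC, the transferrin receptor, had 73782, 103185 and 87912 normalized counts at D0 and 231128, 253451 and 167174 at D6 (1.30 ± 0.20, adjusted p = 0.00116). SLC25A37, the mitochondrial iron importer, rose 5.34-fold, and ERFE, the erythroid hormone that lowers hepcidin, 4.88-fold (adjusted p = 0.000307 and 0.00157). Among 15 genes of heme transport and breakdown 9 rose and 1 fell, led by the mitochondrial carrier SLC25A39 with 2.78 ± 0.24 (adjusted p = 8.88e-05) and the exporter ABCG2 with 2.51 ± 0.55 (adjusted p = 0.00737).

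Genes of the red cell membrane and surface rose. Of 16 membrane skeleton genes, 11 rose and 2 fell, with a median of 1.0, and 7 rose when KO3 at D0 or KO2 at D6 was left out. SLC4A1, the anion exchanger band 3 (chr17:44248390-44268141, minus strand), had 216, 3102 and 1254 normalized counts at D0 and 60884, 118810 and 24658 at D6. Its days did not overlap, and its lowest level at D0 was in KO1 (5.48 ± 0.91, adjusted p = 0.00179). DMTN, TPM1 and TMOD1, which bind and cap the short actin filaments of the skeleton, rose 5.58-fold, 3.37-fold and 3.23-fold. ACTB, the cytoplasmic actin, fell from 45093, 42337 and 44074 to 21619, 26572 and 31964 (−0.71 ± 0.16, adjusted p = 0.00883). Of 24 blood group and surface genes, 18 rose and 1 fell, with a median of 1.37. AQP1, a water channel (chr7:30911853-30925517, plus strand), rose most, from 11, 40.3 and 28.8 to 5227, 6370 and 4054 normalized counts, which is 195-fold (7.60 ± 0.40, adjusted p = 1.83e-05). The Rh genes RHD and RHCE, close copies whose reads may be split, rose by 3.93 ± 0.95 and 3.67 ± 0.76 on the log2 scale, with 2045 and 1869 counts in KO2 at D6 against at most 362 in KO1 and KO3.

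Of 31 late erythroid genes, 22 rose and none fell, with a median of 1.01. TSPAN5, a tetraspanin, went from 3.38, 24 and 13.2 to 544, 815 and 187 normalized counts (5.24 ± 0.69, adjusted p = 0.000584). TRIM10, a ring-finger protein of erythroid cells, went from 7.61, 350 and 110 to 1917, 8091 and 2188 (4.70 ± 0.99, adjusted p = 0.00588). HEMGN rose 7.05-fold and CA1, a carbonic anhydrase, 3.47-fold.

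The promoters of 3 genes that rose are shown as the 250 bases before the RefSeq start of the gene (GRCh38.p14), for ALAS2 and HBD of the heme and globin lists and CHAC1 of the stress list below. They are shown because they hold a match and belong to lists described here. Capitals mark the letters AGATAA, of the kind read by GATA factors, in ALAS2 and HBD, and TGATGCAA, of the kind read by ATF4 with its partners, in CHAC1. All 3 matches lie on the opposite strand and so appear as their reverse complement.
ALAS2 (chrX:55030978-55031227, minus strand): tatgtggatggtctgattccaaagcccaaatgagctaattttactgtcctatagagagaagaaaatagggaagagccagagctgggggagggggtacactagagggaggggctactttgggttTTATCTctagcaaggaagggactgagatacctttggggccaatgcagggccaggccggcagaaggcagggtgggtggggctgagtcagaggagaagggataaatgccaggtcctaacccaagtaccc
HBD (chr11:5234484-5234733, minus strand): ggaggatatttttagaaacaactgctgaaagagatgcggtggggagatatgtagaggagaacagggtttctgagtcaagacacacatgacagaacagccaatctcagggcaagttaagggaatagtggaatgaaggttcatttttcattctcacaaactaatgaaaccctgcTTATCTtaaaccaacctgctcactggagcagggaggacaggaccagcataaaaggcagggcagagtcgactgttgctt
CHAC1 (chr15:40953221-40953470, plus strand): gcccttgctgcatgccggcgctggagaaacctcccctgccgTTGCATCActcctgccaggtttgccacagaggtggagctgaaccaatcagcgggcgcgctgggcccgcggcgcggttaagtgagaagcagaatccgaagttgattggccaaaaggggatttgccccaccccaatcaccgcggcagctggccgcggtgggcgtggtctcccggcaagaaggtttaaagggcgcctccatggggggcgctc
AGATAA starts 127 bases before the start in ALAS2 and 78 in HBD, and TGATGCAA 209 bases before it in CHAC1. Among the 9557 tested genes with a RefSeq promoter, 4.42% held AGATAA on either strand, against 5.50% of 109 DEGs that rose and 4.50% of 200 that fell. TGATGCAA stood in 0.366% of all these promoters, in 2 of the 109 and in none of the 200. A match is a run of letters and names no bound factor.

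More transcription factors of the erythroid lineage rose than fell. Of 31 tested, 17 rose (54.8%, against 14.8% of all genes) and 6 fell (19.4%, near the 16.1% of all genes). Without KO2 at D0 12 rose, and 3 fell when KO1 at D0 or KO2 at D6 was left out. GATA1 had 2588, 2674 and 2678 normalized counts at D0 and 4506, 4891 and 5373 at D6, close among subclones on both days (0.90 ± 0.13, adjusted p = 0.00105). GATA2 (chr3:128479427-128493201, minus strand), which GATA1 replaces, fell 9.54-fold, from 3745, 3945 and 3949 to 369, 278 and 572 (−3.25 ± 0.29, adjusted p = 0.000113). TAL1, a partner of GATA1, rose 2.59-fold (adjusted p = 0.00112). SOX6, a regulator of globin switching, rose from 34.7, 85.8 and 61.7 to 1060, 2063 and 251, with the lowest D6 value in KO3 (4.21 ± 0.67, adjusted p = 0.00149). HHEX, a homeobox factor of progenitors, and SPI1, the myeloid factor PU.1, fell 12-fold and 6.64-fold. STAT5A and STAT5B, which act below the erythropoietin receptor, did not pass the test, with −0.21 ± 0.16 and 0.19 ± 0.14. Without KO3 at D6, STAT5A fell by 0.38 on the log2 scale (adjusted p = 0.042).

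Cytokine receptors and their targets moved both ways. Of 20 cytokine receptor and STAT5 target genes, 6 rose and 7 fell (30% and 35%, against 14.8% and 16.1% of all genes). KIT, the receptor of stem cell factor, fell 4.40-fold, from 18201, 9785 and 10798 normalized counts to 3488, 1691 and 3636 (adjusted p = 0.00176). CSF2RB, the common beta chain of the interleukin 3 and 5 receptors, fell 20.8-fold (adjusted p = 0.000713). CD36, a scavenger receptor of erythroid progenitors, rose 3.79-fold, with 8869 to 10964 normalized counts at D0 and 31798 to 40570 at D6 (adjusted p = 6.2e-05). Among 14 glucocorticoid response genes, 7 rose and 2 fell (50% and 14.3%, against 14.8% and 16.1% of all genes). Dexamethasone was in the D0 medium only. TSC22D3, a classic target of the receptor, rose 3.65-fold and KLF9 3.66-fold, while ZFP36L2, which holds progenitors in self-renewal, fell 2.51-fold (adjusted p = 0.000907, 0.00579 and 0.000181).

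The 18 mast cell and eosinophil markers on the list summed to 3734 to 7486 normalized counts in the KO libraries at D0 and 57 to 237 at D6, against 1834 to 2471 and 2555 to 4072 in WT, and 6 of the 18 were at 0 in all 6 KO libraries. The filter on low counts kept 7 of them, and EPX, CPA3 and MS4A2 passed it only through the KO libraries at D0, where they are high, so no count or median of these 7 is given. Of the megakaryocyte and platelet markers 2 were tested: ITGA2B fell by 3.80 on the log2 scale and TUBB1 rose by 2.23 (adjusted p = 0.000310 and 0.0230). The call of TUBB1 was lost without KO1, KO2 or KO3 at D0 or KO2 at D6, with an adjusted p of up to 0.0729. TUBB1 had 86, 84 and 83 reads in KO1, KO2 and KO3 at D0 and 158, 790 and 112 at D6. In bulk RNA, fewer cells of a type and less RNA per cell cannot be told apart. EPX, eosinophil peroxidase, had 109, 137 and 190 normalized counts at D0 and no read in any KO library at D6, at least 51.3-fold lower against a floor of 3 reads per library. MS4A2, the beta chain of the IgE receptor (chr11:60088261-60098467, plus strand), had 713, 136 and 281 at D0 and 0, 0.95 and 1.93 at D6, with 3 reads in all on D6. Its ratio was 399, with an exact 95% interval from counting error of 136 to 1939. CPA3, a mast cell protease, had 85.4, 233 and 261 at D0 and 2 reads in all at D6, a ratio of 308 (84.8 to 2545). TPSAB1, a tryptase with close copies, fell 43.7-fold (adjusted p = 0.000181).

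EGR1, an immediate early factor (chr5:138465479-138469303, plus strand), had 12316, 7452 and 8437 normalized counts at D0 and 4.59, 35.2 and 2.9 at D6, which is 657-fold lower (−9.36 ± 0.63, adjusted p = 3.4e-05). FOS, of the same kind, fell 145-fold, from 1391, 920 and 1173 to 7.35, 10.5 and 5.79. ZNF521, a zinc-finger factor of progenitors, fell 157-fold, IKZF2, a lymphoid zinc-finger factor, 132-fold and CDK15, a little studied kinase, 120-fold. LGALS1 (galectin 1) and CAPG, an actin capping protein, fell 76.0-fold and 57.2-fold. VIM, vimentin, fell from 27478, 19311 and 20513 to 483, 365 and 994 (−5.19 ± 0.43, adjusted p = 7.94e-05). Apart from VIM, these genes were picked among DEGs whose D0 and D6 libraries in KO did not overlap. Their separation by day thus follows from the choice.

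The same 250 bases are shown for EGR1 and for 2 mast cell genes that fell, MS4A2 and CPA3. Capitals mark the CArG box, read by the serum response factor, in EGR1 and the letters AGATAA, on either strand, in the others.
EGR1 (chr5:138465229-138465478, plus strand): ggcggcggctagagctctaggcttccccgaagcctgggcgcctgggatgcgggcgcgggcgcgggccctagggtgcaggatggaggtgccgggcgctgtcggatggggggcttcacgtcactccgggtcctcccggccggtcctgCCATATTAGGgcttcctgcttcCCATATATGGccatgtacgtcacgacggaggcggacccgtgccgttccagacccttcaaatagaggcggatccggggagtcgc
CPA3 (chr3:148865046-148865295, plus strand): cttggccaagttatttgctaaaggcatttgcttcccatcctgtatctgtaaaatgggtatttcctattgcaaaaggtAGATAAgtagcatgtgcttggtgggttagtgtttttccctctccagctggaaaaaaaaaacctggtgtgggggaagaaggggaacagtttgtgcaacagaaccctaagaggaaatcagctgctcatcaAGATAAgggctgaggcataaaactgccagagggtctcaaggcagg
MS4A2 (chr11:60088414-60088663, plus strand): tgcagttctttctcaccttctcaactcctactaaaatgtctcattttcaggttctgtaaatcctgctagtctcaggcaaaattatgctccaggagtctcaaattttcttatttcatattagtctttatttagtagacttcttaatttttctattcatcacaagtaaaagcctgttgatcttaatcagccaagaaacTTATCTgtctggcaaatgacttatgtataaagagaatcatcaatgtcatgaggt
EGR1 holds a CArG box 105 and another 83 bases before its start, CPA3 holds AGATAA 173 and 45 bases before it, and MS4A2 54 bases before it on the opposite strand. These starts are those of RefSeq. The GENCODE gene of MS4A2, at the position given above, starts earlier, so the stretch shown for MS4A2 lies within that gene. The CArG box stood in 0.952% of the 9557 promoters, in 2 of the 109 DEGs that rose and in 2 of the 200 that fell. AGATAA thus stood before the RefSeq starts of genes that rose and of genes that fell.

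**Figure D2:**
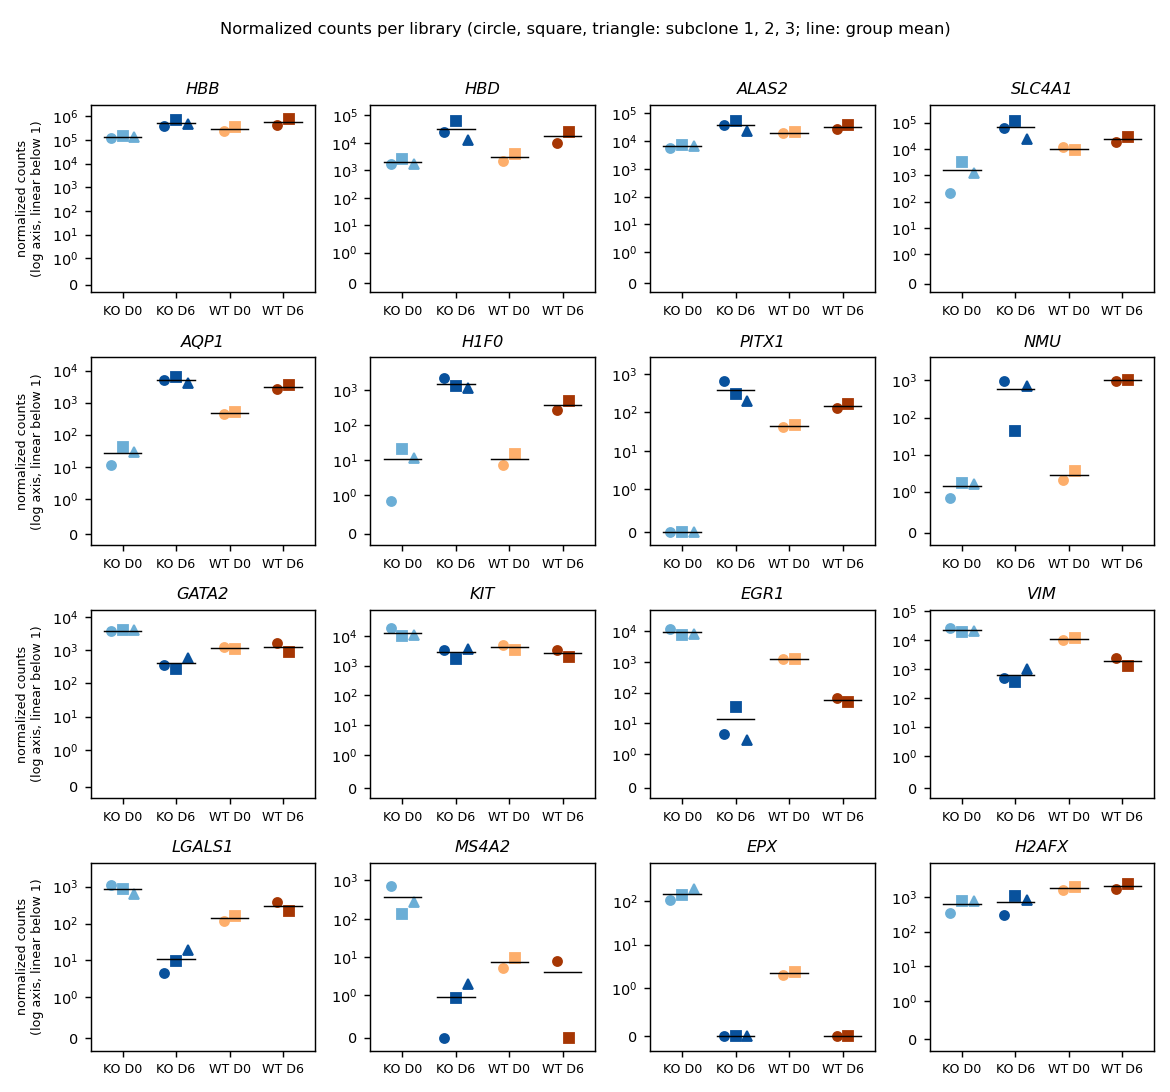
Normalized counts of 16 genes in each library of the H2A.X experiment on a log axis that is linear below 1, with circles, squares and triangles for subclones 1, 2 and 3 and a line at each group mean. KO levels of HBB, ALAS2, SLC4A1, AQP1 and H1F0 did not overlap between D0 and D6, nor did those of GATA2, KIT, EGR1, VIM and LGALS1, and H2AFX was lower in every KO than in every WT library. For AQP1, H1F0, EGR1 and LGALS1 this lack of overlap was part of a rule by which they were named.

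Some genes rose strongly from a low level at D0. PITX1, a homeobox factor (chr5:135027734-135034813, minus strand), had no read in the 3 KO libraries at D0 and 661, 301 and 198 normalized counts at D6, at least 153-fold higher against 3 reads per library. SMOX, spermine oxidase, went from 5.07, 12 and 6.58 to 994, 1539 and 240 (6.85 ± 0.76, adjusted p = 0.000247). Below 1 CPM, counts scaled by the library total, in every KO library at D0 and above 10 CPM in every one at D6 were 3 genes, PITX1 and SMOX among them, and the reverse held for 13, FOS, ZNF521, IKZF2 and CDK15 among them. NMU, the peptide neuromedin U, had 0.845, 1.72 and 1.64 normalized counts at D0, 983 and 713 in KO1 and KO3 at D6 and 44.7 in KO2, so that KO2 was the low subclone for this gene (8.57 ± 1.20, adjusted p = 0.000789). SLC30A1, a zinc exporter, rose 69.4-fold (adjusted p = 7.94e-05). C17orf99, a cytokine-like protein of erythroid cells, rose from 0, 19.7 and 10.7 to 488, 1733 and 951 (adjusted p = 0.00024).

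H1F0, the linker histone H1.0 of cells that stop dividing (chr22:37805229-37807432, plus strand), had 0.845, 20.6 and 11.5 normalized counts at D0 and 2175, 1285 and 1124 at D6 (7.11 ± 0.61, adjusted p = 9.26e-05). Of 10 histone variants read outside S phase 4 rose and none fell, or 2 rose without KO2 at D0 or KO2 at D6, and of 48 replication-dependent histones none rose and 1 fell, a class whose RNAs lack a poly(A) tail and are poorly caught by oligo-dT. With the block 3 of the latter rose and 3 fell, and 4 fell without WT1 or WT2 at D6. Of 18 condensin and cohesin genes 7 rose, SMC2 among them by 1.03 ± 0.25 (adjusted p = 0.0119), and this count was 3 or 4 without KO1, KO2 or KO3 at D0 or KO2 at D6 and 12 without KO3 at D6. SYNE3, a nuclear envelope protein, rose 3.45-fold. Of 17 lamina and envelope genes 3 rose and 3 fell (17.6% each, near the 14.8% and 16.1% of all genes). Without KO1, KO2 or KO3 at D0 1 of the 17 rose and none fell, and without KO2 at D6 2 rose and none fell. Of 16 kinases, phosphatases and readers of H2A.X none rose and 3 fell (18.8%, near the 16.1% of all genes), among them TP53BP1 by −1.19 ± 0.22 and the kinase ATR by −0.96 ± 0.21 (adjusted p = 0.00323 and 0.00792), and 5 fell with the block. Of 24 caspases and apoptotic condensation factors none rose and 3 fell (12.5%, against 16.1% of all genes). Among them DFFB, the caspase-activated DNase, fell from 437, 437 and 391 normalized counts to 137, 121 and 161, and its inhibitor DFFA from 1481, 1562 and 1449 to 995.4, 852 and 935 (adjusted p = 0.000698 and 0.00249). With the block 6 of the 24 fell, and without KO3 at D6 3 rose. Of 16 BCL2 family genes 6 rose (37.5%, against 14.8% of all genes) and 4 fell (25%, against 16.1%). BBC3 rose 3.00-fold (adjusted p = 0.00665). BIK fell from 157, 149 and 145 reads in KO1, KO2 and KO3 at D0 to 50, 38 and 43 at D6. BOK fell from 75, 91 and 112 reads to 23, 27 and 41. Without KO2 or KO3 at D0, or KO1 at D6, 2 of the 16 fell.

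Some cell cycle genes rose and many did not pass the test. Of 48 DNA replication genes 22 rose (45.8%, against 14.8% of all genes) and none fell, with a median of 0.38. RRM2, a subunit of ribonucleotide reductase, rose most of them, by 1.18 ± 0.21 (adjusted p = 0.00225). Leaving out KO1, KO2 or KO3 at D0, or KO2 at D6, gave 8 to 10 in place of 22. Of 39 mitosis genes 14 rose (35.9%, against 14.8% of all genes) and 1 fell, and 9 rose without KO1 at D0 or KO2 at D6. Of the 39, CDK1, the mitotic kinase, rose by 1.12 ± 0.17 and ANLN, of the cleavage furrow, by 1.10 ± 0.23. Among 26 G1 cyclins, kinases and inhibitors 14 rose and 3 fell (53.8% and 11.5%, against 14.8% and 16.1% of all genes). The activators CCND3 and CCNE1 rose 4.53-fold and 4.44-fold, the inhibitor CDKN2B 4.62-fold, and E2F5, a repressing E2F, fell 4.50-fold.

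Metabolic genes moved in separate ways. PKM, pyruvate kinase of progenitors, fell 30-fold, from 4474, 4732 and 2844 normalized counts to 27.5, 312 and 61.8 (adjusted p = 0.00119), while SLC2A1, the glucose transporter, PFKM, a phosphofructokinase, and BPGM, which makes the 2,3-bisphosphoglycerate that loosens oxygen from hemoglobin, rose 7-fold, 5.26-fold and 5.17-fold. In all, 5 of 32 glycolysis and pentose phosphate genes rose (15.6%, near the 14.8% of all genes) and 3 fell. With the block 7 of them fell, and without KO2 at D6 8 fell. Of 30 cholesterol genes 12 fell and 1 rose, with a median of −0.60, and 7 fell without KO3 at D0 or KO1 at D6. Of 15 genes of the mitochondrial genome 4 fell (26.7%, against 16.1% of all genes) and none rose. MT-CYB changed by −1.11 ± 0.29 (adjusted p = 0.0165), a call lost without KO1 at D0 or KO2 at D6 (adjusted p = 0.0514 and 0.0623). The list's count was 0 without KO2 at D6, 1 without KO1 at D0 and 9 without WT1 or WT2 at D0. Of 76 nuclear respiratory chain genes 1 rose and none fell, 6 rose with the block, and 4 rose and 1 fell without WT1 or WT2 at D0, and none rose and 3 fell without KO3 at D6. Of 77 ribosomal protein genes 11 rose (14.3%, near the 14.8% of all genes), with a median of 0.43, but the count was 65 with the subclone as a block, 5 without KO3 at D6, 1 without any 1 KO library at D0, 2 and 6 without KO2 and KO1 at D6, and 31 without WT1 or WT2 at D0. Of 70 ribosome biogenesis genes 10 fell (14.3%, near the 16.1% of all genes) and 4 rose. Among these 70 genes RRP1B changed by −1.04 ± 0.14 and UBTF, which starts rRNA synthesis, by 0.85 ± 0.12. With the subclone as a block 16 of them fell, without KO3 at D6 21, without KO1 at D6 6, and without KO1, KO2 or KO3 at D0 or KO2 at D6 2 or 3.

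Most stress genes of the ATF4 pathway rose. Of 22 tested 19 rose and 1 fell, with a median of 1.61. In erythroid cells this pathway is read from the kinase EIF2AK1, which senses heme. ATF3 had 1.69, 18.9 and 14.8 normalized counts at D0 and 274, 239 and 44.4 at D6 (3.97 ± 0.76, adjusted p = 0.00364). CHAC1, which degrades glutathione, and SLC7A11, the cystine importer, rose 9.01-fold and 9.47-fold, with 125 and 191 normalized counts in KO3 at D6 against 733 or more in KO1 and KO2. SESN2, also a p53 target, rose 10.7-fold. In this list the median log2 change was 2.17 in KO1, 1.68 in KO2 and 0.56 in KO3, and 0.83 in WT1 and 0.87 in WT2. Of 23 p53 genes 5 rose and 3 fell (21.7% and 13.0%, against 14.8% and 16.1% of all genes). BTG2 and GADD45A rose by 3.16 ± 0.28 and 2.46 ± 0.24. With the block 5 fell, without KO3 at D6 8 rose, and 3 rose without KO1, KO2 or KO3 at D0 or KO2 at D6. Of 41 autophagy genes 14 rose (34.1%, against 14.8% of all genes) and 2 fell (4.88%, against 16.1%). OPTN and ULK1 rose 4.32-fold and 3.91-fold. Without KO1, KO2 or KO3 at D0 or KO2 at D6, 7 or 8 of the 41 rose. Of 25 antioxidant enzymes 4 rose (16%, near the 14.8% of all genes) and 9 fell (36%, against 16.1%), with a median of −0.18. Without KO1, KO2 or KO3 at D0 or KO2 at D6, 4 or 5 of the 25 fell. PRDX2 and CAT, the peroxiredoxin and catalase of red cells, rose 3.35-fold and 2.65-fold. MSRB1 fell from 326, 266 and 252 reads in KO1, KO2 and KO3 at D0 to 107, 87 and 76 at D6.

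**Figure D3:**
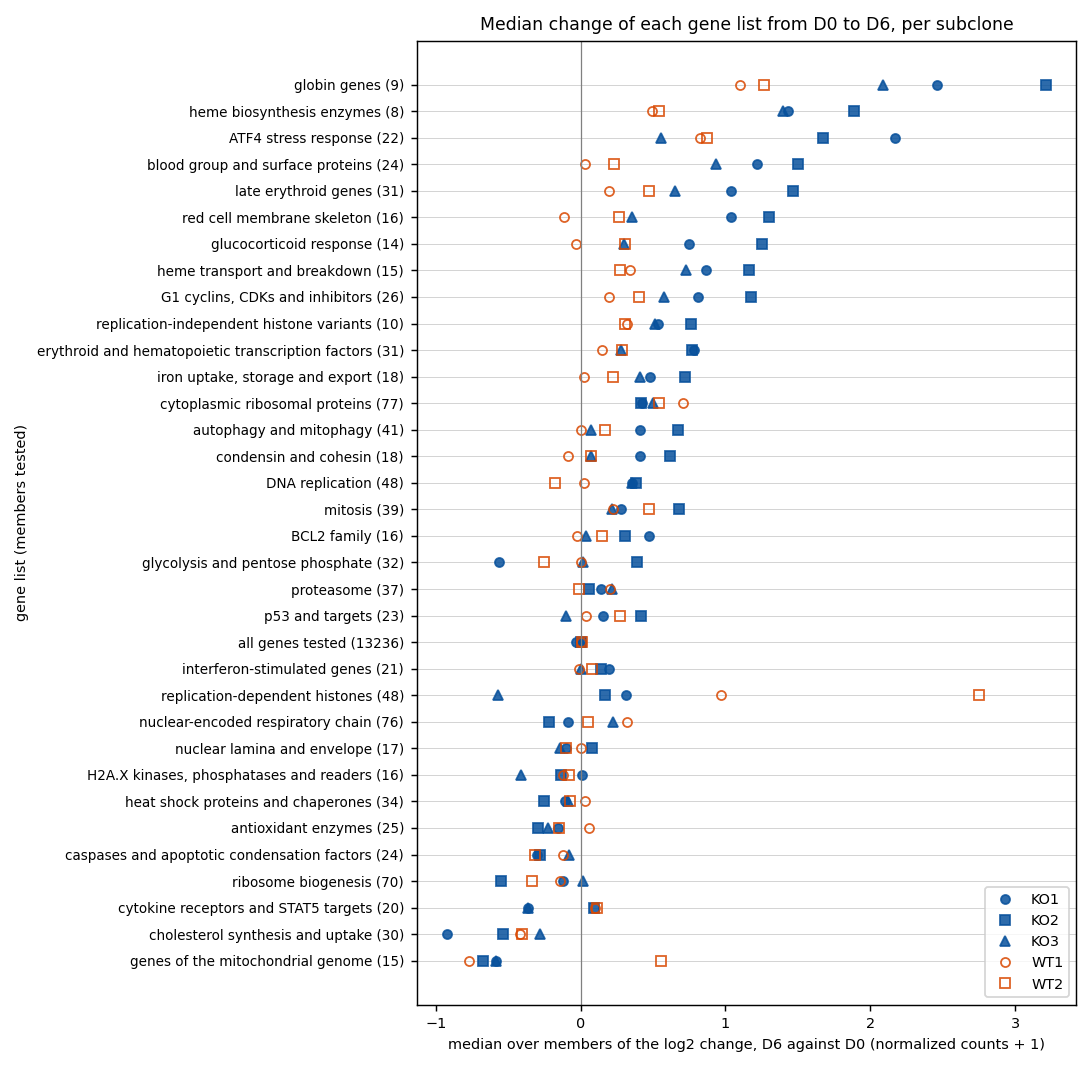
Median log2 change from D0 to D6 over the members of each gene list, with filled blue symbols for KO1, KO2 and KO3 and open orange symbols for WT1 and WT2. Globin genes, heme enzymes and late erythroid genes lay to the right in the 3 KO subclones, and the medians of WT lay nearer 0 for these 3 lists. Mast cell and eosinophil markers are left out.

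Whether the change over the 6 days differed without H2A.X was tested by the difference of the KO and WT changes. In WT, from 2 subclones, 265 genes changed (2.0%), 111 higher and 154 lower (0.839% and 1.16%). With the block 583 rose and 544 fell. Without WT1 or WT2 at D0 or WT2 at D6 none rose and 1 fell, without KO2 or KO3 at D0 16 or fewer rose, and without KO3 at D6 272 rose and 383 fell. The KO change differed from the WT change for 177 genes (1.34%), more positive in KO for 40 (0.302%) and more negative for 137 (1.04%). Of the 137, 135 were called lower at D6 in KO and 92 had opposite signs in KO and WT, and of the 40, 36 were called higher in KO. With the subclone as a block the difference was called for 552 genes, 211 and 341. Without KO3 at D6 it was called for 851 genes, 479 and 372, and all 177 were among them. It was called for 8 genes without WT1 at D0, 6 without WT2 at D0, 42 and 94 without WT1 and WT2 at D6, and 71 to 91 without KO1, KO2 or KO3 at D0. With offsets for transcript length and GC content it was called for 85 and 173. The WT change rests on 2 subclones.

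AQP1 rose from 427 and 519 normalized counts to 2720 and 3600 in WT, and its difference of log2 changes was 4.86 ± 0.51 (adjusted p = 0.00374). AQP1 was lower in KO than in WT at D0 and higher than in WT at D6, with no overlap on either day. PITX1 had 42.5 and 47.9 in WT at D0 and 129 and 163 at D6, and SLC30A1, the phosphatase ALPL and the carboxypeptidase SCPEP1 also rose more in KO, by 3.80, 3.79 and 3.47 on the log2 scale. GATA2 had 1231 and 1090 in WT at D0 and 1659 and 902 at D6, so that KO lay above WT at D0 and below it at D6 (difference −3.40 ± 0.44, adjusted p = 0.00751). FOS, with 171 and 160 in WT at D0 and 60.5 and 159 at D6, differed by −6.56 ± 0.57 (adjusted p = 0.00136), and EGR1, which fell in WT from 1261 and 1226 to 66.3 and 48.3, by −4.94 ± 0.84 (adjusted p = 0.0227). ANXA1, annexin 1, fell 25.2-fold in KO, from 205, 326 and 483 to 5.51, 16.2 and 18.3, and rose in WT from 38.4 and 44.3 to 765 and 295 (difference −8.34 ± 0.80, adjusted p = 0.00224). LGALS1, at 118 and 158 in WT on D0 and 378 and 222 on D6, differed by −7.38 ± 0.63. The sialic acid receptor SIGLEC6, at 30.3 and 21.5 in WT on D0 and 147 and 73.4 on D6, differed by −7.61 ± 1.02, and GCSAML, a signalling adaptor, by −7.33 ± 0.89. The tryptase TPSAB1 fell in KO but had 578 and 702 in WT at D0 and 1395 and 746 at D6 (difference −6.19 ± 0.80, adjusted p = 0.00782).

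**Figure D4:**
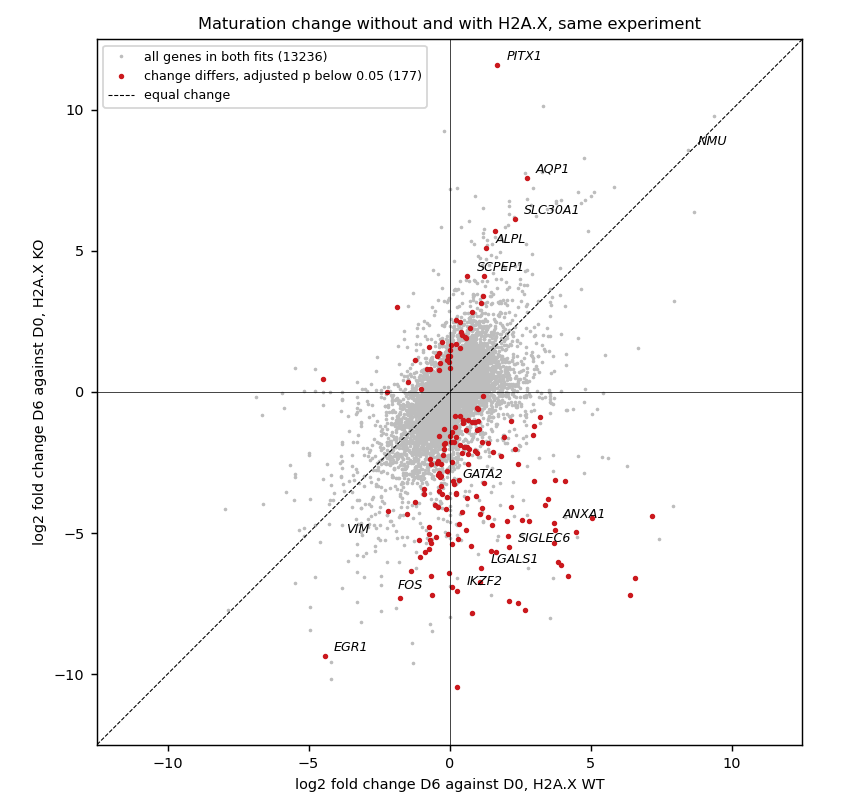
Log2 fold change from D0 to D6 in H2A.X KO (vertical axis) against H2A.X WT (horizontal axis) for the 13236 genes tested, with the 177 genes whose changes differed in red and the line of equal change dashed. PITX1, at the top, had no read at D0 in KO, so its fitted value is no bound.

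Most differences of the globin and heme genes from WT did not pass the test. Among the 8 heme enzymes ALAD was called, at 1.22 ± 0.25 (adjusted p = 0.0488). With the subclone as a block 5 of the 8 were called, and 4 of 9 globin genes. ALAS2 had 19021 and 21003 normalized counts in WT at D0 and 28292 and 36795 at D6, where it overlapped the KO libraries (difference 1.80 ± 0.39, adjusted p = 0.057, and 0.0149 with the block). HBB had 235170 and 365110 in WT at D0 and 423830 and 764263 at D6 (difference 1.02 ± 0.46, adjusted p = 0.33, and 0.023 with the block). Called as well were TMOD1 at 1.47 ± 0.28 and CD36 at 1.35 ± 0.23 (adjusted p = 0.0386 and 0.0224). The difference for NMU was 0.10 ± 1.71 (adjusted p = 0.996), with 986 and 1045 normalized counts in WT at D6.

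More genes passed the test for the same change in the WT subclones of the BAZ1B experiment, which share no library with the KO subclones and were counted and fitted in a separate table. There 9565 of 13879 genes changed between D0 and D6 (68.9%), 4654 higher (33.5%) and 4911 lower (35.4%), with a biological coefficient of variation of 0.0865 between replicates, against 0.239 in the H2A.X experiment. The WT libraries there also held more counts, 34591047 to 41273244 against 11910141 to 21013004 in the H2A.X experiment. What depth or variation does to the number of calls was not tested. Of 1939 genes that rose in H2A.X KO and were tested in both, 1837 also rose there, which is 94.7% of the first list and 40.6% of the 4529 that rose there. Of all genes tested in both, 35.2% rose there and 15.1% rose in H2A.X KO. Of 2106 that fell, 1995 fell there too, 94.7% and 43.8% of each list, where of all genes tested in both 35.4% fell there and 16.4% in H2A.X KO. Called in opposite directions were 6 and 10. The medians of 4 lists were 3.68 for globin genes, 1.76 for heme enzymes, 1.15 for the membrane skeleton and 0.95 for late erythroid genes in the BAZ1B-experiment WT, against 2.89, 1.65, 1.0 and 1.01 in H2A.X KO. They were 0.83 against 1.61 for ATF4 genes and −0.09 against −0.60 for cholesterol genes. In the H2A.X WT the ATF4 median was 0.80 and the cholesterol median −0.43. No gene of either list was called for a difference between the H2A.X KO and WT changes. AQP1 rose by 6.75 and SLC4A1 by 6.82 on the log2 scale there, NMU by 8.64, and GATA2 fell by 1.84. ANXA1 changed by −1.23 and EGR1 by −4.15 there. These values are set side by side, and their differences across the separate tables were not tested.

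**Figure D5:**
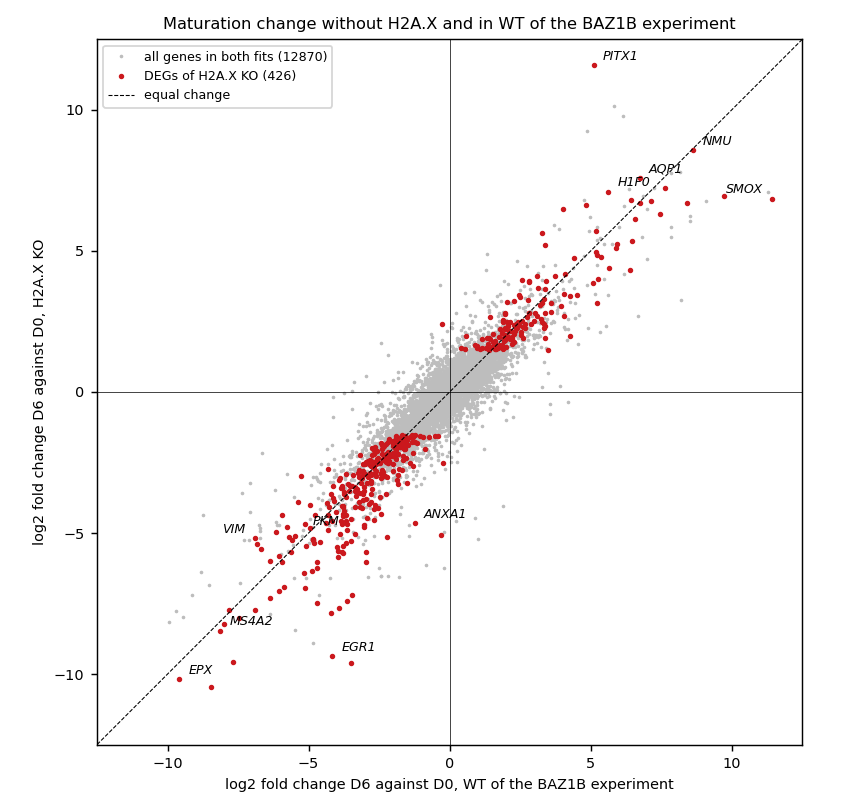
Log2 fold change from D0 to D6 in H2A.X KO (vertical axis) against the WT of the BAZ1B experiment (horizontal axis) for the 12870 genes tested in both, with the 426 DEGs of H2A.X KO in red and the line of equal change dashed. The DEGs lay along the line, and EGR1 and ANXA1 lay below it.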

How the data were processed

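Poly(A) RNA of HUDEP-2 subclones was sequenced, and the authors deposited raw read counts per gene, 1 table per experiment, with samples named in the column headers. Per the labels reads were aligned to hg38 with STAR 2.7.0f and counted with featureCounts of Subread 1.6.4, and the labels name DESeq2 1.22.1. The labels and the study's methods differ in library kit and read length, and which applies was not tested. Every count column was assigned to a sample by its name.

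Genes were filtered with filterByExpr (minimum count 10, total 15), scaled by TMM and fitted with edgeR 4.0.16 (R 4.3.3) by the quasi-likelihood test, with 1 coefficient per genotype and day over the 10 libraries of the H2A.X experiment and p-values adjusted by Benjamini-Hochberg over all 13236 genes. The BAZ1B experiment was fitted apart. Scripts were tested on simulated data. Normalized counts are counts over the effective library size, scaled to the mean library. Changes per subclone added a pseudocount of 1. Intervals cover counting error only. Total counts were 11910141 to 21013004 per library of the H2A.X experiment, which sets a floor of 3 reads for a gene listed at 0.

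D0 and D6 libraries with the same replicate number deviated together from their group means (10165 genes). The r was 0.604, 0.443 and 0.321 for KO1, KO2 and KO3 and 0.435 in WT, where the pair of replicates gives a single mirrored value. Headers of the KO libraries name KO1, KO2 and KO3 on both days, while WT labels give a replicate number only. Libraries with the same number were taken to be 1 subclone. Nothing says that cultures were independent beyond the subclone. The reported fit does not use the pairing, and its p-values measure the spread between libraries of the same genotype and day, pooled over KO and WT. Only fits with the subclone as a block measure the spread of the change between subclones.

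Named genes are the targeted genes and those the study names, the 12 DEGs that rose most and the 12 that fell most, up to 4 changed members per list with all globin and heme enzyme genes, the 5 largest differences from WT in each direction, and the 8 largest rises and falls in CPM. A few genes that meet these rules are not reported here. The members of all lists and the rules were chosen with earlier results of these data known. Promoters come from RefSeq (GRCh38.p14), with an entry for 9557 of the 13236 genes, and gene positions from GENCODE on GRCh38. Motifs were searched on both strands as AGATAA, CCACACCC, TGATGCAA and the CArG box. Alternatives were DESeq2 1.42.0, upper-quartile scaling, globin genes left out, no filter, a minimum count of 50, the KO libraries alone, the subclone as a block, offsets for transcript length and GC content, and each library left out.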

Additional observations from a re-analysis of the deposited data

Results flagged for a closer look

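For 23 of the genes named, the change from D0 to D6 differed between KO and WT by a test of the difference itself (edgeR, adjusted p below 0.05, KO change minus WT change on the log2 scale). More positive in KO were AQP1 with 4.86, SLC30A1 with 3.80, ALPL with 3.79, SCPEP1 with 3.47, BTG2 with 2.04, TMOD1 with 1.47, CD36 with 1.35 and ALAD with 1.22. For PITX1 the fitted difference was 9.91, but it had no read in KO at D0, so this value depends on the fit and is neither a size nor a bound. More negative in KO were ANXA1 with −8.34, SIGLEC6 with −7.61, LGALS1 with −7.38, GCSAML with −7.33, IKZF2 with −7.31, CDK15 with −6.98, FOS with −6.56, TPSAB1 with −6.19, ZNF521 with −5.54, EGR1 with −4.94, CAPG with −4.80, GATA2 with −3.40, IFITM3 with −2.72 and ZFP36L2 with −1.12. Groups of 3 and 2 libraries are too small for a test of single outlying samples, so none was made. Over all genes, most called differences were lost when either WT library at D0 was left out, as given above. These 23 calls thus rest on few WT libraries. The difference between KO and WT changes correlated with transcript length at rho = 0.175 over 12017 genes, and its part in these values was not tested beyond the offsets for length and GC content.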

How the results depend on the processing

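At an adjusted p below 0.01, 920 genes rose and 1163 fell in KO. DEGs higher and lower numbered 362 and 651 with DESeq2, 483 and 833 with no filter, 237 and 458 with the subclone as a replicate block, 5 and 33 with the 6 KO libraries alone, 65 and 125 with these and the block (chosen after seeing the data), and 74 and 68 without KO replicate 3 on both days. With offsets for length and GC content and the block 240 were higher. The difference from WT, positive and negative, was called for 281 and 387 genes with DESeq2, 456 and 551 with no filter, 211 and 341 with the block, and 235 and 327 with offsets and the block. It was positive for 122 without KO replicate 3 on both days and 85 with offsets. WT genes higher and lower numbered 431 and 598 with DESeq2, 597 and 674 with no filter, 583 and 544 with the block, and 465 and 439 with offsets and the block. With each library left out in turn, genes changed in KO were between 1153 and 2444 higher and 1488 and 2427 lower, DEGs 21 to 290 and 98 to 327, differences 1 to 479 and 5 to 372, and WT genes 0 to 272 and 1 to 383. H2AFX changed by −0.18 to 0.56, with −0.11 without KO D0 replicate 1 and −0.18 without KO D6 replicate 2, and HBZ by −1.74 (without KO D6 replicate 3) to 0.13 (without KO D0 replicate 2). The causes were not tested. No gene called both in the reported fit and in any of these alternatives changed sign. Among the named genes' changes in KO, the block changed no call other than those of HBG1 and HBQ1.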

Other observations

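Interferon-stimulated genes moved both ways in KO. Of 21 tested, 8 rose and 6 fell (38.1% and 28.6%, against 14.8% and 16.1% of all genes), with a median log2 fold change of 0.00. ISG20, an exonuclease, rose 9.29-fold and IRF1, a transcription factor, 6.28-fold, while the membrane protein IFITM3 fell 6.97-fold. Of 34 heat shock proteins and chaperones 4 rose and 6 fell (11.8% and 17.6%, near the 14.8% and 16.1% of all genes). Without KO1, KO2 or KO3 at D0 or KO2 at D6, 2 or 3 fell. Of 37 proteasome genes 5 rose and 1 fell, and 13.5% higher is near the 14.8% of all genes.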
